A study of Mus musculus with 11 samples.

Results

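The transcripts of 3 genes were followed through bone marrow endothelium of healthy and tumour-burdened mice: *Stc1* (Entrez 20855), *Slco2a1* (Entrez 24059) and *Selenop* (Entrez 20363). They are 3 of the 27179 gene rows counted, and all 3 were among the 11948 genes with enough reads to test. They were selected on their measured levels, which set the libraries of tumour-burdened bone apart from those of healthy bone. Their differences between burdened and healthy bone are therefore given as a description, with no test, whereas the difference between the areas of a burdened bone, which the choice did not use, was tested.

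The libraries were RNA-seq of CD31hi EMCNhi endothelial cells (ECs), the antigen profile of type H capillaries in healthy bone, sorted from marrow of BALB/c mice aged 8 to 10 weeks. Burdened mice carried 4T1.2 mammary cancer cells, a BALB/c-derived line labelled with red fluorescent protein that spreads from the mammary fat pad to bone. The paper studied lesion outgrowth after intracardiac injection, and its RNA-seq methods do not name the route used for the sequenced mice. Their bones were microdissected by that fluorescence into tumour-infiltrated marrow (met, 3 libraries) and tumour-free marrow next to it (non-met, 6 libraries), and 2 libraries came from age-matched mice without tumours (control). The sort was by antigen in all groups, so in met marrow it can hold vessels other than type H. Each library held cells of a pool of 1 to 4 mice. Non-met 1 and 5 shared burdened pool 1. Met 1 shared pool 2 with non-met 2 and 6, met 2 shared pool 3 with non-met 3, and met 3 shared pool 4 with non-met 4. The 9 burdened libraries thus represent 4 pools. Libraries of the same pool hold the same animals, and the tests over libraries treat them as separate samples.

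Total counts ran from 733342 in non-met 4 to 19539761 in control 1. Levels are CPM, counts per 1000000 scaled by the trimmed mean of M values, and, where genes are compared with each other, RPKM, the same per kilobase of counted exon. A count of 3 reads, taken as the floor of detection, was worth 0.154 CPM of all counts in the deepest library and 4.09 CPM in the shallowest. Of 15 general endothelial markers, 14 had reads in all 11 libraries, and the 15 summed to 11002 to 19830 CPM of all counts. They include *Pecam1* and *Emcn*, which encode the antigens of the sort. With no reference level for that sum, the sorted identity was not tested. In bulk libraries such as these, fewer cells expressing a gene and less RNA per cell cannot be told apart.

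*Stc1* encodes stanniocalcin 1, a secreted glycoprotein hormone first known for calcium regulation in fish, which in mammals acts locally and can inhibit the protease PAPP-A that cleaves IGF-binding proteins. *Slco2a1* encodes the prostaglandin transporter, a membrane carrier that takes prostaglandins such as PGE2 into the cell, where they are oxidised. *Selenop* encodes selenoprotein P, a secreted protein that carries selenium between tissues and is taken up through receptors of the LDL-receptor family. Each of the 3 products therefore acts on, or moves, something that travels between cells.

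On GRCm38, *Stc1* lies on the plus strand of chromosome 14 at chr14:69029289-69041401 and has 4 counted exons with 3743 bases. *Slco2a1* lies on the plus strand at chr9:103007061-103096002, with 14 exons and 4033 bases, and *Selenop* on the plus strand at chr15:3270767-3280510, with 5 exons and 2216 bases. Each overlaps 1 other annotated gene, which are the lncRNA *Gm41192* for *Stc1*, the snoRNA *Gm22595* for *Slco2a1* and the coding gene *Ccdc152* for *Selenop*. *Ccdc152* itself held 1067 reads in the whole series, against 2672 or more for *Selenop* in every library. Whether the counting used strand is not given in the sources used here.

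The stretch that makes *Selenop* unusual is shown first. A selenoprotein is made by reading UGA, normally a stop codon, as the amino acid selenocysteine. The coding sequence of a GENCODE transcript of *Selenop* has 1143 bases, which is 380 codons and a TAA stop, and holds 10 in-frame TGA codons. The first is codon 59 and the last codon 377. The last 300 coding bases hold 7 of them, printed in capitals.
Selenop, codons 282 to 381: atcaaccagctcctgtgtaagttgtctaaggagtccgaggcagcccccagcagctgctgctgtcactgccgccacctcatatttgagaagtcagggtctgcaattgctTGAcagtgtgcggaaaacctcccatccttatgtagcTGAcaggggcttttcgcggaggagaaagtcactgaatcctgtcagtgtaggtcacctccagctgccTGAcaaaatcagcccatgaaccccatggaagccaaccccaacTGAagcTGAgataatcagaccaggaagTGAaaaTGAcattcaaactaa

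The RefSeq promoter windows of GRCm38.p6 are stretches of 300 bases around a start site, and are shown for the 2 members whose entries were matched. They were searched on both strands for ACGTG (the core of the hypoxia response element), TGACTCA (AP-1) and GTAAACA (forkhead factors), with any match in capitals. The 3 motifs are in 19.6%, 5.2% and 3.65% of 32851 such windows.
Slco2a1, chr9:103008237-103008536, plus strand: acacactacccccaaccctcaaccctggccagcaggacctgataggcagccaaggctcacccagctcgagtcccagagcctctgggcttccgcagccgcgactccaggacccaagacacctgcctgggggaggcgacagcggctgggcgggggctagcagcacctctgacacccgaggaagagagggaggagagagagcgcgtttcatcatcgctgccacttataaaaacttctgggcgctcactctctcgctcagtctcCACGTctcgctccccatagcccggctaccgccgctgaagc
Selenop, chr15:3270727-3271026, plus strand: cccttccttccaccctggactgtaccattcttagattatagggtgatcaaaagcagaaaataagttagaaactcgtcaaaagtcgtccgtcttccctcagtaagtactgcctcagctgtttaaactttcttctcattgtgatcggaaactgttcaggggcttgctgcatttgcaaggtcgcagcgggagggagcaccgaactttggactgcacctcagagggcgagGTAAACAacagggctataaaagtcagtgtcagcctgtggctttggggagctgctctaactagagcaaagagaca

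The *Slco2a1* window was 64% G or C, above the median of 52.7% over all windows, and held 1 match, the reverse complement CACGT, 11 bases after the start site. The *Selenop* window was 48.3% G or C and held 1 match, GTAAACA, 24 bases before its start site. The 2 other *Selenop* windows upstream of it, at 40.7% and 41.3% G or C, held none of the 3. A match shows only that these letters are present.

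*Stc1* was low or undetected in healthy bone and well above detection in every burdened library. Control 1 held 227 reads, or 11.1 CPM, and control 2 held none in 5029771 counts, which allows up to 0.531 CPM. In the non-met libraries 1 to 6 the levels were 325, 174, 255, 150, 206 and 127 CPM, and in met 1 to 3 they were 289, 161 and 118 CPM. Every burdened library lay above both controls, and the lowest of them was 10.6 times the higher control. The met and non-met ranges overlapped over nearly their whole width.

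The mean *Stc1* level was 5.55 ± 7.85 CPM (SD, n = 2) in control, 206 ± 73.4 (n = 6) in non-met and 190 ± 89.2 (n = 3) in met. The burdened mean was 36.2 times the control mean, and on the log2 scale the difference of mean levels was 6.55. That size rests on the control libraries, since the SD of their log2 levels was 3.54 against 0.52 over the 9 burdened libraries. The weighted voomLmFit difference was 9.71 with all libraries, 4.01 without control 2 and 10.97 without control 1. Per length, *Stc1* averaged 1.48 RPKM in control, 55.1 in non-met and 50.6 in met. This placed it at the 22.7th percentile of tested genes in control 1, and between the 78.8th and 93.7th in burdened libraries.

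*Slco2a1* was expressed in healthy bone and was higher in every burdened library, at a similar level in the met libraries and a wide range of levels in the non-met ones. Controls 1 and 2 held 245 and 131 CPM. Non-met 1 to 6 held 665, 580, 1466, 1107, 367 and 353 CPM, and met 1 to 3 held 1401, 1302 and 1378 CPM. All 9 burdened libraries lay above both controls, the lowest by 1.44 times. The highest library of all was non-met 3, above the 3 met libraries, and non-met 5 and 6 were nearest to the controls.

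The mean *Slco2a1* level was 188 ± 80.9 CPM (SD, n = 2) in control, 756 ± 443 (n = 6) in non-met and 1361 ± 51.6 (n = 3) in met. The burdened mean was 5.10 times the control mean, a difference of mean log2 levels of 2.23. The highest and lowest non-met libraries differed 4.16-fold and the highest and lowest met libraries 1.08-fold. Per length the means were 46.6, 188 and 337 RPKM.

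*Selenop* was among the most abundant transcripts of these cells in every library and was lower in each burdened library than in either control.
Controls 1 and 2 held 7437 and 6553 CPM. Non-met 1 to 6 held 3685, 3833, 3560, 4835, 3696 and 3293 CPM, and met 1 to 3 held 3217, 2661 and 3590 CPM. The lower control was 1.36 times the highest burdened library, which was non-met 4. The other 5 non-met libraries lay within a narrow band and the met range reached into that band from below.

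The mean *Selenop* level was 6995 ± 625 CPM (SD, n = 2) in control, 3817 ± 531 (n = 6) in non-met and 3156 ± 468 (n = 3) in met. The control mean was 1.94 times the burdened mean, and the difference of mean log2 levels, burdened minus control, was -0.97. Per length the means were 3157, 1722 and 1424 RPKM, at or above the 99.8th percentile of tested genes in all 11 libraries.

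**Figure D1:**
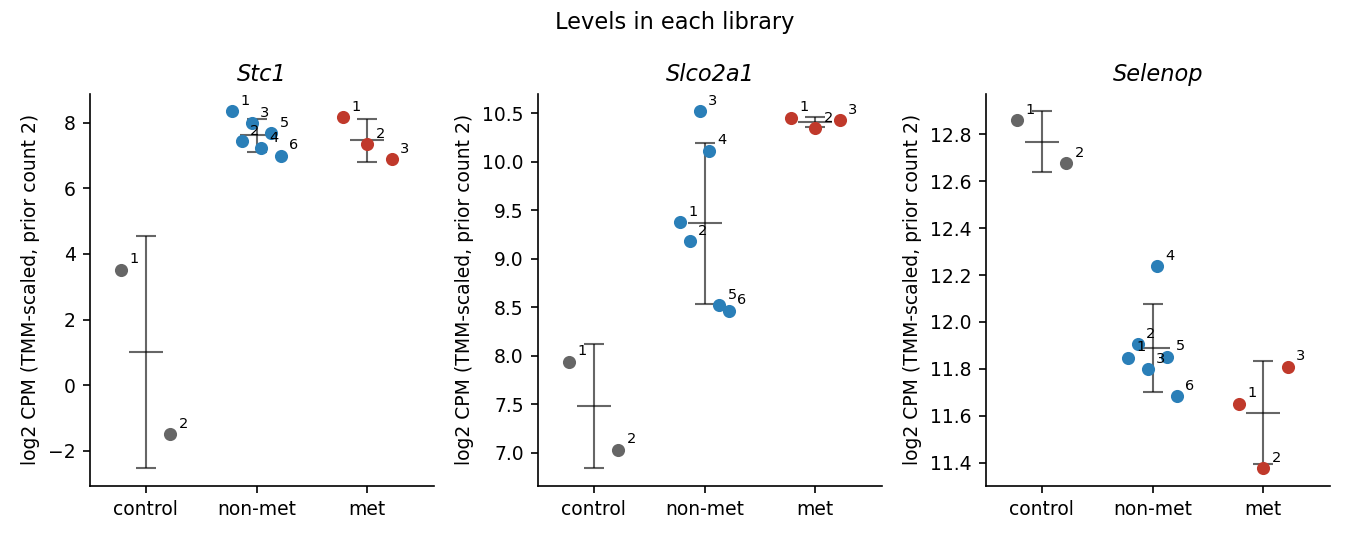
Level of each gene in each library as log2 CPM (trimmed-mean scaling, prior count 2), with replicate numbers beside the points and the mean and SD of each group as black bars. Control 2 holds no read of *Stc1* and sits at its prior value of -1.49. All 9 burdened libraries lie above both controls for *Stc1* and *Slco2a1* and below both for *Selenop*.

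These separations were what the choice of genes used, and nothing is read from them. Of the 11948 tested genes, 0.611% had all 9 burdened libraries above both controls and 2.39% had all 9 below. The median difference of mean log2 levels over tested genes, burdened minus control, was -0.70, and -0.86 when scaled by library size alone, so the directions of the 3 members stand on either side of a shifted centre. Among the 83 genes with a mean of at least 1000 CPM, where low reads play little part, that median was 0.24, or 0.03 by library size. Of those 83 genes, 4 were at or below *Selenop*, itself included. Among 226 genes with a mean of at least 500 CPM, 4 were at or above *Slco2a1*, itself included, and among 2276 with a mean of at least 100 CPM none exceeded *Stc1*. Such separations were more frequent among these abundant genes, with 5 of the 83 below both controls in all burdened libraries, and 19 of the 226 and 57 of the 2276 above.

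Met and non-met libraries were compared next. All 6 non-met libraries were used, of which non-met 1 and 5 are of pool 1, which has no met library. The question was whether a member differed between endothelium inside a metastasis and endothelium beside it. No member had its 3 met libraries all on one side of the 6 non-met libraries, against 1.54% of tested genes with all met libraries above and 0.444% with all below. For *Stc1* no difference was detected. The met mean was 0.919 times the non-met mean, and the voomLmFit difference in log2 level was -0.54 (SE 0.588, adjusted P = 0.858). The exact two-sided permutation test over 84 arrangements of the libraries gave P = 0.702. Within pools, met minus non-met was 0.96 in pool 2, -0.66 in pool 3 and -0.35 in pool 4, with no common direction.

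For *Slco2a1* the met mean was 1.80 times the non-met mean, and the result of the test depended on the method. voomLmFit gave a log2 difference of 1.04 (SE 0.182, adjusted P = 0.00321), and called 0.427% of tested genes in either direction, 0.285% as higher in met and 0.142% as lower. The 3 other analyses of the same counts did not call it. The edgeR quasi-likelihood test gave 0.85 (adjusted P = 0.564), DESeq2 gave 0.73 (SE 0.434, adjusted P = 0.645) and limma-trend gave 1.05 (SE 0.410, adjusted P = 0.911). The unadjusted P were 0.0336 (quasi-likelihood), 0.0934 (DESeq2) and 0.0164 (limma-trend). These methods called 0.134% (quasi-likelihood), 2.71% (DESeq2) and 0.0167% (limma-trend) of genes. The exact permutation test gave P = 0.0833, where the smallest it can give is 0.0119.

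Non-met *Slco2a1* was at 353 to 665 CPM in pools 1 and 2, and at 1466 and 1107 CPM in pools 3 and 4. The *Slco2a1* difference also varied between pools. It was 1.63 on the log2 scale in pool 2, -0.17 in pool 3 and 0.32 in pool 4, so met was higher in 2 of 3 pools. By library size alone it was higher in 3 of 3, with pool 3 at 0.07 and pool 4 at 0.52, and all met libraries then lay above all non-met ones, as in 1.64% of genes, with an exact permutation P = 0.0357. With the mouse pool as a fixed term the voomLmFit difference was 0.23 (SE 0.486, adjusted P = 1.00), in a fit that called 0.286% of genes. With the libraries of a pool and area summed, the exact permutation P over 35 arrangements was 0.257, whereas voomLmFit on those sums kept the call (1.04, adjusted P = 0.00848), as it did with the pool as a random block (1.05, adjusted P = 0.00277).

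**Figure D2:**
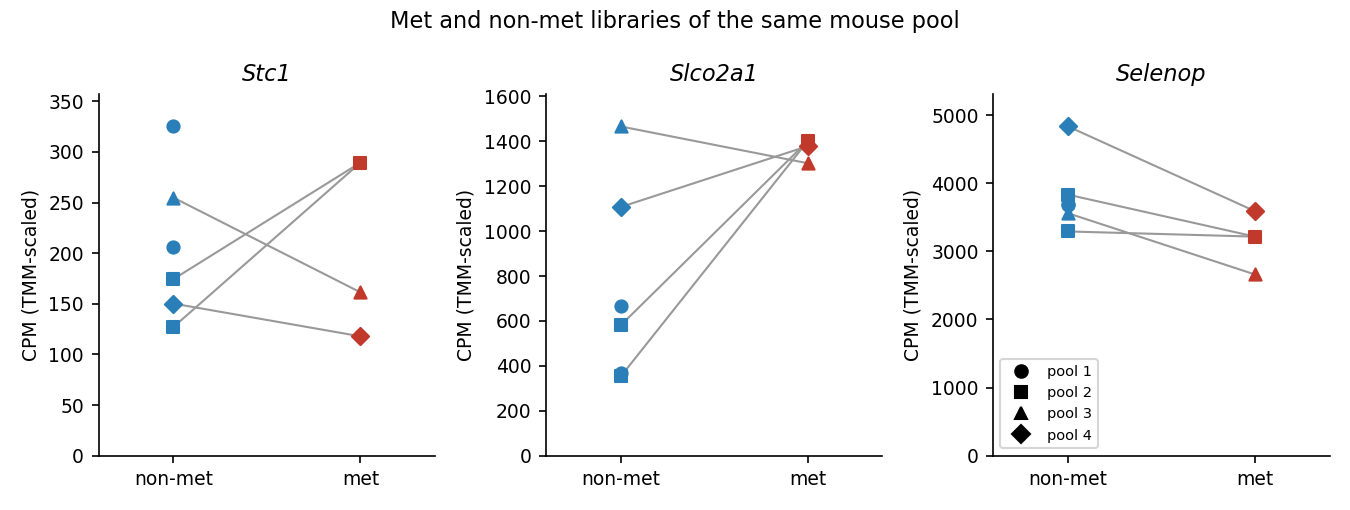
CPM of each gene in non-met and met libraries, with lines joining libraries of the same mouse pool (marker shape) and pool 1 without a met library. *Slco2a1* lies at 1302 to 1401 CPM in met and at 353 to 1466 in non-met, and *Selenop* falls along every line.

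For *Selenop* the met mean was 0.827 times the non-met mean and met was lower in 3 of 3 pools, by 0.14, 0.42 and 0.43 on the log2 scale. The exact permutation test over libraries gave P = 0.0952, and over the 7 sums of a pool and area P = 0.0571, where the smallest possible is 0.0286. The quasi-likelihood difference was -0.27 (adjusted P = 0.879), DESeq2 gave -0.44 (adjusted P = 0.519) and limma-trend gave -0.27 (SE 0.123, adjusted P = 0.911). With the mouse pool as a fixed term voomLmFit gave -0.37 (SE 0.0972, adjusted P = 0.0581).

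Without the pool term voomLmFit called *Selenop* at a log2 difference of only -0.09, with an SE of 0.000684 and an adjusted P of 4.24e-31. In that fit the precision weights of this gene were almost wholly in a single library of each group. Met 3 held 99.9969% of the met weight, non-met 2 held 99.9764% of the non-met weight and control 2 held 99.8854% of the control weight. The fitted difference is thus that between met 3 and non-met 2, at 3590 and 3833 CPM, and its sign turned under library-size scaling (0.02) and without non-met 2 (0.01). Met 3 also held 82.8% of the met weight for *Slco2a1*, and 52.3% for *Stc1*. Of the tested genes, 26 had over 90% of the met weight in 1 library, and 18 of these 26 were called.

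**Figure D3:**
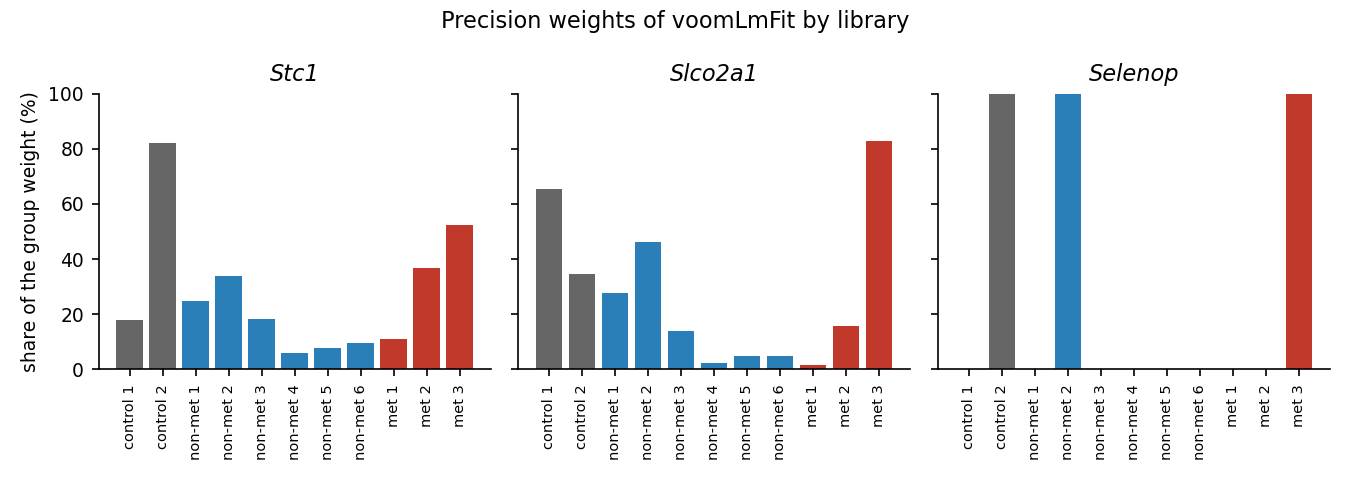
Share of each group's summed precision weight held by each library in voomLmFit, in percent, for each gene. For *Selenop* a single bar in each group stands at nearly 100%, whereas for *Stc1* the largest met share is 52.3%.

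The levels of other cell types in the sorted fraction were read beside these values. Cytokeratins *Krt8*, *Krt18* and *Krt19*, which mark mammary epithelium, summed to 0.819 to 4.43 CPM in the controls and non-met 1 and 2 and to 9.69 to 82.0 CPM in the other 7 libraries. Among the burdened libraries from the highest *Stc1* level to the lowest, that sum was 1.19, 17.7, 65.4, 25.8, 4.43, 65.5, 47.7, 82.0 and 9.69 CPM. Over the 12 epithelial markers, of which *Krt5* was at 0 throughout, the sum was 1.18 to 38.6 CPM in control, up to 149 in non-met and 12.3 to 118 in met. The part of tumour cells in the *Stc1* values was not tested.

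The summed sinusoidal level, like *Selenop*, was lower in every burdened library than in either control, though its genes did not all follow. The 9 markers summed to 10395 to 12538 CPM in control, 5428 to 8298 in non-met and 4771 to 7120 in met, with 3 of 9 genes lower in all burdened libraries than in either control, beside 2.39% of all tested genes (*Stab2*, *Vcam1* and *Mrc1*) and *Lyve1* and *Clec4g* at 0 throughout. Of the 7 tested, 5 had a lower and 2 a higher unweighted mean in burdened bone (*Flt4* at 0.32 and *Fcgr2b* at 0.64 on the log2 scale), with a median of -0.28 against -0.70 over all tested genes. The 17 stromal, perivascular and osteolineage markers summed to 4429 and 12398 CPM in the controls, 1174 to 4660 in non-met and 904 to 3076 in met, with 2 of 17 genes (*Lepr* and *Cxcl12*) lower in all burdened libraries than in either control and *Bglap* at 0 throughout. *Cxcl12* alone was at 3224 and 8721 CPM in control and so made up most of the control sums, and of the 16 genes tested 5 had a higher and 11 a lower unweighted mean in burdened bone. The 15 macrophage and monocyte markers summed to 1227 to 1813, 543 to 1571 and 323 to 1148 CPM, with 6 of them, including *C1qa*, *C1qb* and *C1qc*, at 0 in all libraries. *Mrc1*, which is also in the sinusoidal list, made up much of that sum, at 929 and 1526 CPM in control, 400 to 895 in non-met and 306 to 825 in met. The sort had gated out cells carrying CD45 or Ter-119, the antigens of white and red blood cells. The part of these cells in the *Selenop* values was not tested.

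Granulocyte, general endothelial and arterial endothelial marker sums were read beside the *Slco2a1* contrast of met with non-met. The 10 granulocyte markers summed to 81.4 to 403 CPM in control, 312 to 4711 in non-met and 35.2 to 181 in met, with none of the 9 genes tested called between met and non-met by voomLmFit and 7 at an unadjusted P under 0.05, beside 7.24% of all tested genes. Non-met 3 and 4, with the highest non-met *Slco2a1* levels, had the lowest non-met sums of 312 and 435 CPM, and non-met 5 and 6, with the lowest *Slco2a1*, had 2962 and 4711. The controls had low granulocyte sums together with the lowest *Slco2a1* levels of all. The general endothelial sum was 15082 to 19830 CPM in met, 11002 to 15739 in non-met and 12395 and 16672 in the controls. By voomLmFit 4 of its 15 genes rose in met, beside 0.285% of all tested genes. These were *Pecam1*, which encodes CD31 and was used in the sort, *Cdh5*, *Tie1* and *Eng*. The *Pecam1* difference in that fit was 0.89 (SE 0.133, adjusted P = 0.000441). Over all tested genes limma-trend called 0 higher in met, the quasi-likelihood test 3 and DESeq2 21. The 10 arterial endothelial markers summed to 1073 to 1301 CPM in met, above the 679 to 1051 in non-met and the 500 and 841 in control. None of those 10 was called between met and non-met by voomLmFit, and 7 had a positive and 3 a negative difference. Mitochondrial reads were 4.33% to 9.56% of counts in met, 6.72% to 17.8% in non-met and 5.40% and 6.20% in control. The part of these measures in the *Slco2a1* values was not tested.

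**Figure D4:**
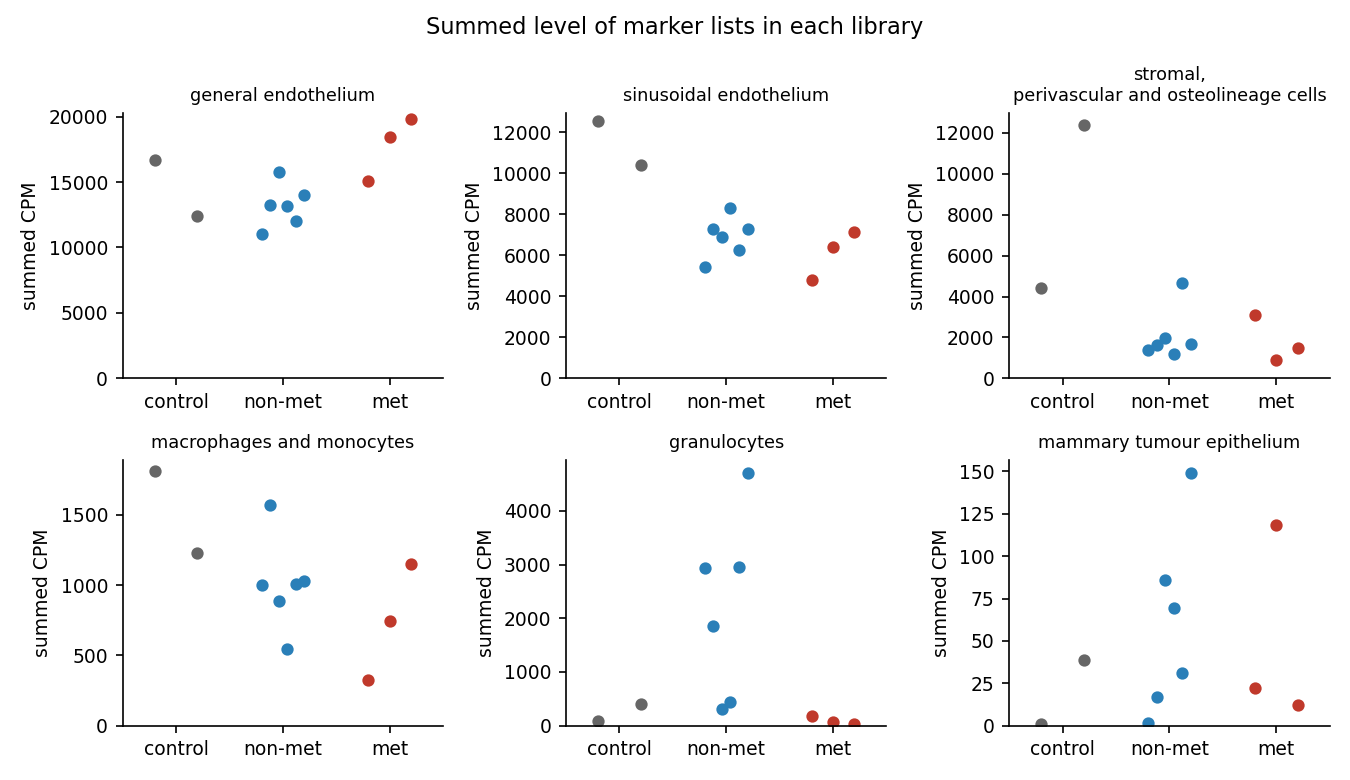
Summed level of 6 marker lists in each library (CPM of all counts, linear axes from 0), by group. Sinusoidal sums are lower in every burdened library than in either control, and granulocyte sums are higher in every non-met library than in any met library.

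Other genes of the members' pathways were compared between met and non-met in the same fit. Of 56 other tested genes in the 8 lists, voomLmFit called none, the quasi-likelihood test, DESeq2 and limma-trend called none, and 3 had an unadjusted P under 0.05 in voomLmFit, beside 7.24% of all tested genes. These were *Igfbp4* at 0.30 (SE 0.125, adjusted P = 0.592), whose unweighted difference had the opposite sign (-0.15), *Slco3a1* at 3.66 (SE 1.32, adjusted P = 0.467) and *Lrp8* at 5.10 (SE 1.97, adjusted P = 0.539). The median unweighted difference over all tested genes was 0.26.

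Around *Stc1*, 7 genes of the stanniocalcin and PAPP-A axis were tested besides the member. Its paralog *Stc2*, named after its values were seen, had over 3 reads in 3 libraries only and reached 86.8 CPM in 1 non-met library. *Igfbp4*, which encodes the binding protein cleaved by PAPP-A, was at 2324 and 2891 CPM in control, 1038 to 2014 with a median of 1412 in non-met, and 1207 to 1448 in met. It fell against control in both areas, by 1.33 in non-met (adjusted P = 1.60e-09) and by 1.03 in met (adjusted P = 3.62e-08) on the log2 scale of voomLmFit. Unweighted, the difference of burdened from control was -0.90, and all burdened libraries lay below both controls. Those P values are of voomLmFit alone, and how its weights fell for *Igfbp4* is not given here. The weighted fit reverses the order of the areas, since the mean level was 1260 RPKM in control, 717 in non-met and 628 in met. *Igfbp5*, a further binding protein, was at 320 to 2702 CPM over all libraries, with no call in any contrast. *Pappa*, which encodes PAPP-A and was named after its values were seen, was at 42.8 and 50.1 CPM in control, 0 in each met library and at a median of 0 and at most 21.3 in non-met. It passed against control in met (adjusted P = 0.0405), non-met against control had an adjusted P of 0.0756, and no difference between met and non-met was shown (adjusted P = 0.781). Background shares were 0.511% called lower in met and 0.452% called lower in non-met against control. The met and non-met contrasts share the 2 control libraries.

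Around *Slco2a1*, the genes of prostaglandin synthesis with the highest mean CPM were the cyclooxygenases *Ptgs1* (146) and *Ptgs2* (27.3) and the prostamide synthase *Prxl2b* (19.1). The order per length differed, with *Prxl2b* at 24.3 RPKM above *Ptgs2* at 6.57. *Ptgs2* and *Prxl2b* each had over 3 reads in only 5 of the 11 libraries, and *Ptgs2* was at 0 and 0.0489 CPM in the controls. *Ptgs1* was at 153 and 171 CPM in control, 0.933 to 333 in non-met and 0.441 to 218 in met, with a median of 159 in non-met. The reductase *Ptgr2* and the exporter *Abcc4* averaged 69.9 and 50.5 CPM, and *Hpgd*, the dehydrogenase that begins prostaglandin breakdown and was named after its values were seen, had no read in any library. Of the receptors, the PGE2 receptors *Ptger1* and *Ptger2* averaged 192 and 42.5 CPM and the thromboxane receptor *Tbxa2r* 38.7. *Ptger2* had over 3 reads in 7 of the 11 libraries and *Tbxa2r* in 6. *Ptger1* was at 188 to 363 CPM in met and 48.9 to 228 in non-met, a log2 difference of 0.83 (SE 0.607, adjusted P = 0.781). The receptor gene *Ptgfr*, named after its values were seen, was lower in non-met than in control (adjusted P = 0.0418), at 34.7 and 43.9 CPM in control and at most 1.81 in non-met. In met it was at 0 to 12.9 CPM (adjusted P = 0.112 against control), and no difference between met and non-met was shown (adjusted P = 0.996).

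Of the 14 other organic anion transporters, 7 never exceeded 3 reads in a library and 4 were tested. *Slco2b1* and *Slco3a1* averaged 67.3 and 66.9 CPM, and *Slco2a1* was therefore the leading transporter of its family per length too, with a mean of 203 RPKM over all libraries against 13.5 and 12.5 RPKM, and of 46.6 RPKM in control against 8.12 and 11.3.

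Around *Selenop*, 18 of 23 other selenoprotein genes were tested, and 9 had a positive and 9 a negative voomLmFit difference between met and non-met. None was called in that contrast or against control. *Selenof*, a protein of the endoplasmic reticulum, averaged 260 RPKM, and the glutathione peroxidase *Gpx1* averaged 241. *Selenow*, named after its values were seen, was above both per length at 291 RPKM. *Selenof* was at 293 and 304 CPM in control, 116 to 1084 in non-met and 193 to 427 in met. *Gpx1* was at 136 and 213 CPM in control, 137 to 517 in non-met and 220 to 381 in met, with a log2 difference between met and non-met of 0.86 (SE 0.450, adjusted P = 0.733). Over the 18 genes the median unweighted difference, burdened minus control, was -0.26, against -0.97 for *Selenop* and -0.70 over all tested genes.

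The 8 genes of selenoprotein synthesis and selenium handling were all tested and none was called. The 3 with the highest mean CPM were *Secisbp2l* (147), *Sephs1* (36.0) and *Secisbp2* (35.8), the last of which encodes the protein that binds the selenocysteine insertion element. Per length *Secisbp2l* was at 21.7 RPKM, *Sephs1* at 6.77 and *Secisbp2* at 12.3. *Trnau1ap*, named after its values were seen, was above the latter 2 at 18.0 RPKM. Of the receptors that bind selenoprotein P, *Lrp1* averaged 81.7 CPM. *Lrp2* averaged 19.4 CPM but had over 3 reads in only 3 of the 11 libraries, with up to 141 CPM in non-met. *Lrp8*, the receptor known for selenoprotein P uptake in testis and brain, was at 0.441 to 79.0 CPM in met, at most 0.888 in non-met and at most 5.38 in control.

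**Figure D5:**
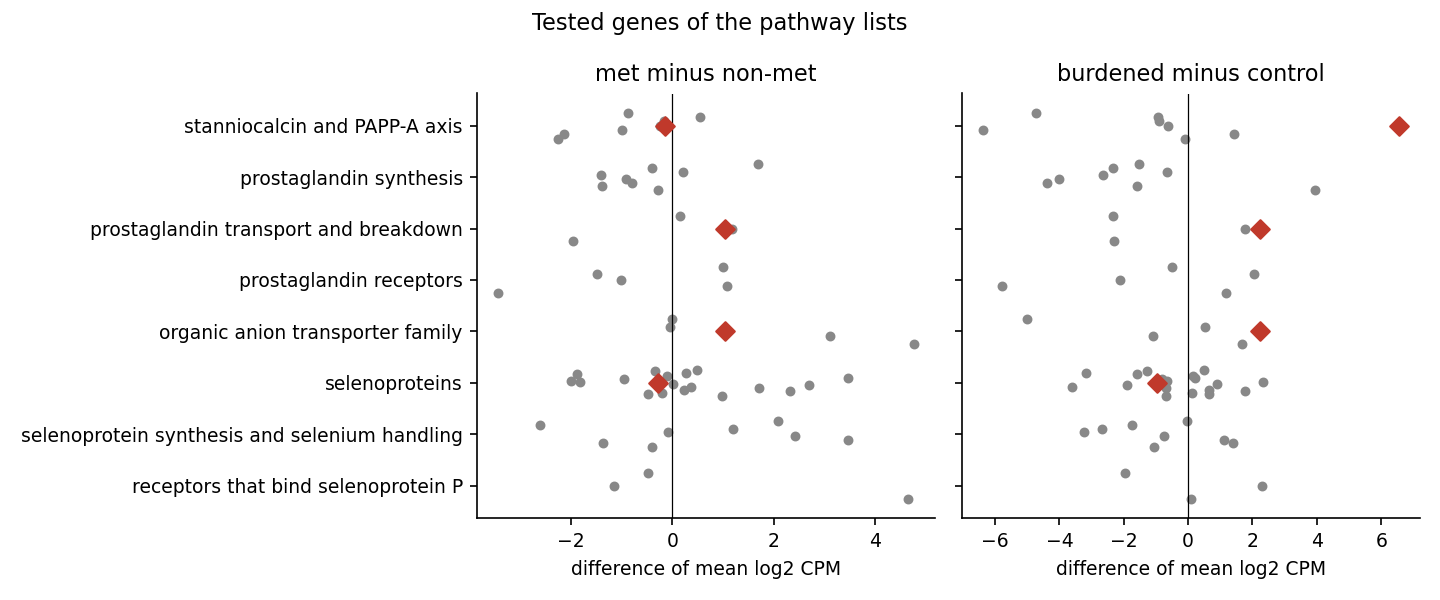
Difference of mean log2 CPM for each tested gene of the 8 lists, met minus non-met on the left and burdened minus control on the right, with members as red diamonds and other genes as grey points. *Slco2a1* stands in 2 lists. *Stc1* has the highest burdened-minus-control value drawn, at 6.55, and *Selenop* at -0.97 lies among the other selenoproteins.

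Genes with the pattern most like each member were taken from 9519 tested genes with a mean of at least 10 CPM, by Pearson correlation of log2 CPM. The points share sequencing depth and mouse pools, and over all 11 libraries the gap between control and burdened bone, on which the members were chosen, so these are descriptions. *Stc1* was most like *Lbr*, the lamin B receptor (r = 0.93, Spearman rho = 0.85), *Bzw1*, a regulator of translation initiation (r = 0.89, rho = 0.34), and *2610507B11Rik* (r = 0.89, rho = 0.59). *Lbr* was at 0 and 73.1 CPM in control and at 64.9 to 441 CPM in burdened libraries. Over the 9 burdened libraries alone its nearest genes were *Exosc3* (r = 0.93), *Kirrel* (r = 0.92) and *Fpgs* (r = 0.91), and no gene was in both sets.

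*Slco2a1* was most like *C1qtnf1* (r = 0.93, rho = 0.95), which encodes a secreted C1q-domain protein, *Mcam* (r = 0.93, rho = 0.88), which encodes the endothelial adhesion molecule CD146, and *Eln* (r = 0.92, rho = 0.90), which encodes elastin. *Mcam* was at 134 to 303 CPM in control, 435 to 1132 in non-met and 1011 to 1588 in met. Over the burdened libraries alone the nearest were *Cyth3* (r = 0.98, rho = 1), *Kdr*, which encodes VEGF receptor 2 (r = 0.96, rho = 0.87), and *H2-T23* (r = 0.95, rho = 0.90). *Kdr* was at 1161 and 2076 CPM in control, within or above its range of 710 to 1865 in burdened libraries.

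*Selenop* was most like *Cyp4b1*, a cytochrome P450 (r = 0.96, rho = 0.90), and, among those reported here, *Rtn4rl1*, a Nogo-receptor relative (r = 0.84, rho = 0.45). *Cyp4b1* was at 466 and 679 CPM in control, 43.5 to 141 in non-met and 12.5 to 52.9 in met, the same order of groups as *Selenop* over a wider range. Over the burdened libraries alone the nearest were *Smad5* (r = 0.93), *Sf3b2* (r = 0.93) and *C1s1* (r = 0.90).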

How the data were processed

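RNA was measured in 11 libraries prepared with the Clontech SMART-Seq v4 low-input kit from small numbers of sorted CD31hi EMCNhi ECs. Groups and mouse pools were taken from the labels. Per the study's methods, the authors used Rsubread for alignment to mm10 and featureCounts, with the annotation supplied in Rsubread, to count reads for each Entrez gene, after removing 1 sample with few aligned reads. The deposited values are raw counts, not normalised, and 11 of 11 single-library tables matched the series table. No value column lacked a sample. Precision is limited by depth, from 733342 to 19539761 counts, and by amplification from little RNA, and floors of 3 reads cover counting error only.

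Of 27179 rows, 25275 were named from RefSeq and 18 from GENCODE. Rows with no name (1886), of ribosomal RNA (36) or of predicted genes (1794) were left out, which held 1.94% to 15.7% of a library's counts, and 23463 remained. filterByExpr (minimum count 10, minimum total 15) kept 11948. Scaling was TMM (not named by the authors), and log2 CPM used a prior count of 2. The test was voomLmFit with sample weights (0.43 to 1.96) over 3 groups, in edgeR 4.0.16 and limma 3.58.1 (R 4.3.3), with Benjamini-Hochberg adjustment over all tested genes at 0.05. Comparisons of single genes also used exact two-sided permutation of libraries. DESeq2 1.42.0, the edgeR quasi-likelihood test, limma-trend, other scalings and filters, pool terms and leaving out each library were the alternatives. Fits without non-met 1 and 2, with a term for 2 library sets split at 5 CPM of summed cytokeratins, with only the controls and non-met 1 and 2, and unweighted means were chosen after the data were seen. The scripts were tested on simulated data.

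Met and non-met libraries of a pool come from the same animals, per the labels, so the pool pairs them. Across genes, which are not independent replicates, the Pearson correlation of their deviations from the group means was -0.01 in pool 2, -0.03 in pool 3 and 0.01 in pool 4. The labels do not give separate animals within a pool, so P values measure the spread between libraries.

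The members and gene lists were chosen with earlier results of these data known. Besides the members, the text names list genes past the threshold between met and non-met or otherwise the 3 of a list with the highest mean CPM, a member counted among the 3, and the 3 genes most like each member, of which 1 is not reported here. Marker genes outside this rule were chosen after their values were seen.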

Additional observations from a re-analysis of the deposited data

Results flagged for a closer look

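*Selenop* in non-met 4 stood apart from the other non-met libraries, at 4835 CPM, while the other 5 lay at 3293 to 3833 CPM. The gap to its nearest neighbour was larger than Dixon's 95% critical value for 6 libraries allows. Scaled by library size alone, non-met 4 was at 4304 CPM, next to non-met 5 at 4099, and did not stand apart. Chance flags about 1 in 20 groups. Non-met 4 is also the shallowest library, with 733342 counts, and it held 2672 reads of *Selenop*.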

How the results depend on the processing

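All 26 alternatives kept the sign and the call of the *Stc1* difference between met and non-met (log2 -0.68 to -0.07, adjusted P 0.758 to 1), and the *Slco2a1* difference between burdened and control stayed within 1.65 to 2.89. The *Slco2a1* difference between met and non-met kept its sign but was not called under the quasi-likelihood test (0.85), DESeq2 (0.73), limma-trend (1.05), the pool as a fixed replicate block (0.23), without non-met 1 and 2 (0.71) or with a term for the 2 library sets (0.67). Leaving out 1 library gave 0.91 to 1.23, and the call was lost without non-met 2 (0.91) and without met 3 (0.99). For *Selenop* the call between met and non-met was lost under the quasi-likelihood test (-0.27), DESeq2 (-0.44), limma-trend (-0.27), no low-count filter (-0.051), the fixed replicate block (-0.37), libraries of a pool and group summed (-0.17) and only met and non-met libraries (-0.070). It reversed under library-size scaling (0.023), without non-met 1 and 2 (0.067), with the set term (0.0050) and without non-met 2 (0.013). Leaving out 1 library gave -0.51 to 0.013, and the call was lost without control 2, without non-met 2, 3 or 5 and without met 1 or 3. The cause of these changes was not tested.

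Between burdened and control, the fitted *Stc1* difference of 9.71 moved to 5.13 (quasi-likelihood), 5.23 (DESeq2), 6.53 (limma-trend), 7.43 (no sample weights), 9.12 (a mean of at least 5 CPM), 8.07 (controls with non-met 1 and 2) and 6.55 (unweighted means, 7.57 with a prior count of 0.5), and leaving out 1 library gave 4.01 to 10.97. That of *Selenop*, -0.82, was -1.06 by library size and -1.06 to -0.80 with 1 library left out. The pathway count of 0 became 1 without control 1 or 2 (*Igfbp4*) and without met 1 (*Lrp8*), within a range of 0 to 1. The number of genes called between met and non-met, 51, was 16 (quasi-likelihood), 324 (DESeq2), 2 (limma-trend), 79 (no filter), 27 (fixed block), 24 (pool sums), 13 (without non-met 1 and 2), 9 (set term) and 16 to 87 with 1 library left out. The pool as a random replicate block gave 52. Depth limits *Stc1* in control 2, with no read, and in non-met 4 and 6, with 83 and 143 reads.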
